A study of Mus musculus with 5 samples.

Results

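The solute carriers are the family of membrane proteins, named Slc with a number, a letter and a number, that move sugars, amino acids, ions, metals and other small molecules across membranes. All rows whose symbol follows that pattern were taken, and those with at least 50 unique molecular identifiers (UMIs, each counted as 1 captured transcript) over the 5 libraries were kept. Of 336 such rows among 18418 genes listed, 207 met the minimum and 129 did not, while 11538 of all genes met it. Just inside the minimum stood Slc30a2 with 52 UMIs and Slc14a1 with 59, and just outside stood Slc10a2, Slc9a9 and Slc23a1 with 48 each. The members were sorted by the number of their family into 13 classes. Of these classes, the mitochondrial carriers have 36 members, the carriers of amino acids and peptides 32, those of metals 27 and those of sodium, protons, chloride, bicarbonate or calcium 24. Further classes are vitamins, nucleosides, lipids, choline and heme with 19 members, solutes of the endoplasmic reticulum (ER) and Golgi with 17, sugars with 11, organic ions and bile acids with 11, other SLC35 members with 9 and carboxylates with 8. Phosphate and urea, and vesicular transport, have 4 members each. The remaining 5 rows carry an Slc symbol but are not transporters: the scaffold proteins Slc9a3r1 and Slc9a3r2, Slc7a6os, Slc4a1ap and the pseudogene Slc2a4rg-ps.

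The study measured single sorted cells of mouse intestinal organoids, which are cultures of gut epithelium grown in 3 dimensions, to compare loss of Lkb1 with the intact gene. Lkb1 is the kinase gene whose symbol in the files is Stk11. There were 5 libraries, each 1 plate of 384 wells: organoids of the small intestine with genotype Lkb1 -/- in a library marked Cys and in another marked Bud, the same kind with Lkb1 +/- (Het), organoids of fetal intestine with the wild-type gene (Fetal), and wild-type organoids of the small intestine (WT). The marks Cys and Bud are not explained in the labels, nor are the strain, the age, the way the allele was made, or the number of animals and clones behind a library. The labels give the same culture protocol for the 5 libraries, with a medium of Egf, R-spondin and Noggin. Every group is a single library, so no test was possible. Each comparison describes those libraries alone, and differences of genotype, plate and culture cannot be told apart.

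In the small intestine, absorptive enterocytes carry sugar and amino acid transporters on the brush border that faces the lumen, many of them driven by the sodium gradient, and partner transporters on the basolateral side pass the solutes on to blood. Secretory and proliferating crypt cells rely on others, such as the basolateral chloride loader Slc12a2 and the amino acid exchangers that feed growth. Carriers of the mitochondrial inner membrane and of the Golgi serve all cells, and levels of many transporters change as cells leave the crypt and mature.

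Wells with at least 1000 UMIs were kept, which left 359 wells in Cys, 318 in Bud, 351 in Het, 371 in Fetal and 302 in WT, with 4035219 to 5865507 UMIs a library. Values are CPM, the UMIs of a gene per 1000000 UMIs of its library with all kept wells added up, and a bracket after a value is its 95% interval, which covers counting error only. All 7 epithelial markers were detected in every library, while the summed level of 7 immune markers was at most 28.98 CPM and that of 8 mesenchymal markers at most 3.33 CPM. The libraries differed in markers of mature cells: 16 enterocyte markers summed to 71.9 CPM in Cys, 1351 in Bud, 7102 in Het, 54.6 in Fetal and 3888 in WT, with Lct and Treh at 0 in Cys and 7 of the 16 at 0 in Fetal, Sis and Alpi among them. Stem cell markers summed to 177 CPM in Cys, 1401 in Bud, 1215 in Het, 339 in Fetal and 1400.4 in WT, with Olfm4 at 0 in Cys and Smoc2 at 0 in Fetal. Markers of gastric epithelium summed to 5461 CPM in Cys, against 45.4 to 63.1 CPM in the other libraries. Tff1 gave 3421 CPM of the sum in Cys, while Sox2 stood at 0, Muc5ac and Muc6 at 0.201 CPM each and Cldn18 at 2.41 CPM. The endothelial list reached 333 CPM in Cys, nearly all of it from Tek, with Pecam1, Cdh5 and Kdr at 0. Markers of fetal and regenerating epithelium summed to 13217 CPM in Cys, 1122 in Bud, 579 in Het, 17104 in Fetal and 532 in WT. In Cys 1 well held 452137 UMIs, and the share of UMIs from the ribosomal RNA gene Rn45s was 6.36% in Cys and 2.71% to 3.50% elsewhere. Stk11 itself stood at 9.03 CPM (6.59 to 12.1) in Cys, 11.7 (8.63 to 15.4) in Bud, 14.1 (10.8 to 18.1) in Het, 16.03 (12.95 to 19.6) in Fetal and 20.6 (16.4 to 25.5) in WT. Reads near the 3' end may lie outside the deleted part, which the labels do not give, so these levels do not check the genotype. All libraries list the same 384 well names, which are plate positions, and 212 of those names were kept in each of the 5.

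The 207 members together held 1.11% of UMIs in Cys, 1.16% in Bud, 1.24% in Het, 1.12% in Fetal and 1.29% in WT. In each library the most abundant member was Slc25a5, the adenine nucleotide exchanger of proliferating cells, and the 10 highest members held 39.01% to 46.1% of the family's total. Between 108 and 117 members reached 20 CPM in a library, and between 4 and 17 had no UMI. The spread over libraries differed among members. Of 120 members with a mean of at least 20 CPM, 40 had a highest library under 2 times the lowest, and 16 had a highest library at least 10 times the lowest. Among these 120, the steadiest was Slc12a9, of the cation-chloride cotransporter family, whose highest library was 1.20 times its lowest. Slc35b2, which brings the sulfate donor into the Golgi, had a factor of 1.28, and the mitochondrial 2-oxoglutarate carrier Slc25a11 one of 1.38. At the other end, 9 of the 207 members had at least 80% of their summed CPM in a single library, 6 of them in Fetal, 2 in Bud and 1 in Cys.

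**Figure D1:**
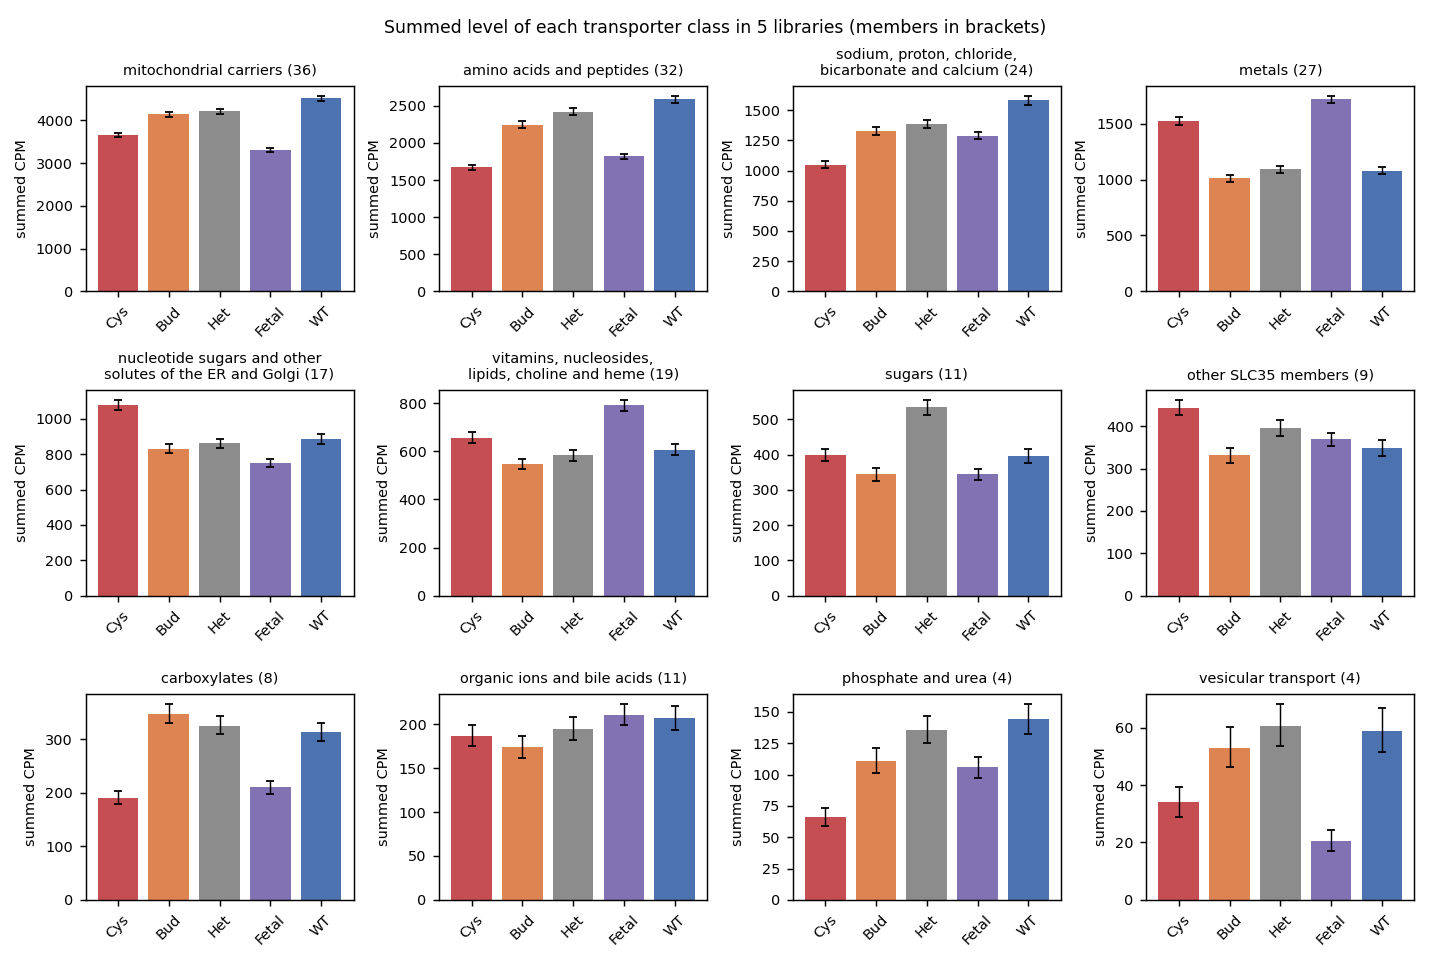
Summed CPM of each of 12 transporter classes in the 5 libraries, in bars that start at 0, with 95% Poisson counting intervals (the 5 rows that are not transporters are left out). Metal carriers stood at 1525 CPM in Cys and 1717 CPM in Fetal, against 1009 to 1093 CPM in the other libraries, while amino acid carriers ran the other way.

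Summed over a class, carriers of amino acids and peptides stood at 1672 CPM in Cys, 2244 in Bud, 2418 in Het, 1823 in Fetal and 2589 in WT. The sum in Cys was 0.646 (0.627 to 0.665) times that of WT, and in Fetal 0.704 (0.685 to 0.723) times. Carboxylate carriers, which include the lactate transporters, stood at 191 CPM in Cys, 348 in Bud, 326 in Het, 210.4 in Fetal and 313 in WT. These classes were lower in Cys and Fetal than in the other libraries, as the plot of class sums shows. Metal carriers were higher in the same pair of libraries: their sum was 1.41 (1.36 to 1.47) times that of WT in Cys and 1.59 (1.54 to 1.65) times in Fetal. That sum rests on few genes, since the zinc importer Slc39a4 made up 39.6% of it in Cys and 41.1% in Fetal, against 11.9% for the top member in WT. The sum of the sugar carriers, 399 CPM in Cys, 344 in Bud, 533 in Het, 344 in Fetal and 395 in WT, hid larger exchanges between members, described next.

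Among the sugar carriers, the brush-border sodium-glucose cotransporter Slc5a1 (SGLT1), at chr5:33104219-33162870 on the plus strand of GRCm38 in the GENCODE annotation, stood at 1.81 CPM in Cys, 145 in Bud, 362 in Het, 1.02 in Fetal and 208 in WT. Cys and Fetal were near 0 and the other libraries far above. The level in Cys was 115-fold lower (60.3 to 252) than in WT and 80.1-fold lower (41.9 to 176) than in Bud. Slc2a5 (GLUT5), the fructose transporter of the brush border, stood at 0 CPM in Cys, 9.05 in Bud, 10.5 in Het, 0 in Fetal and 7.19 in WT. Slc2a2 (GLUT2), the basolateral glucose transporter of enterocytes, stood at 0 CPM in Cys, 0.953 in Bud, 8.87 in Het, 0 in Fetal and 5.45 in WT. These genes for absorbed sugars were thus at or near 0 in Cys and Fetal, and Slc2a2 was also low in Bud, 5.72-fold lower (1.94 to 22.8) than in WT. Slc2a1 (GLUT1), the glucose transporter found in most cells, differed less, with 101 CPM in Cys, 68.1 in Bud, 58.0 in Het, 95.5 in Fetal and 56.8 in WT. Slc45a3, a carrier of the family that resembles plant sucrose transporters, at chr1:131962967-131982969 on the plus strand, stood at 95.4 CPM in Cys, 4.76 in Bud, 1.14 in Het, 16.7 in Fetal and 1.49 in WT. It was 64.1-fold higher (29.2 to 176) in Cys than in WT, and 20.02-fold higher (12.8 to 33.1) than in Bud. The inositol importer Slc5a3 stood at 16.7 CPM in Cys, 13.3 in Bud, 10.2 in Het, 75.0 in Fetal and 9.91 in WT, highest in Fetal.

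The promoters of a pair of brush-border carriers lower in Cys, Slc5a1 and the chloride exchanger Slc26a3, and of Slc45a3, higher in Cys, are shown to set sequence beside these opposite levels. Each line is the RefSeq window of GRCm38.p6 on the plus strand, 250 bases before to 50 after the start site, at chr5:33103969-33104268 for Slc5a1, chr12:31437969-31438268 for Slc26a3 and chr1:131962665-131962964 for Slc45a3. Capitals mark GTTAAT, a core of the sites bound by the HNF1 factors of gut and liver.
Slc5a1: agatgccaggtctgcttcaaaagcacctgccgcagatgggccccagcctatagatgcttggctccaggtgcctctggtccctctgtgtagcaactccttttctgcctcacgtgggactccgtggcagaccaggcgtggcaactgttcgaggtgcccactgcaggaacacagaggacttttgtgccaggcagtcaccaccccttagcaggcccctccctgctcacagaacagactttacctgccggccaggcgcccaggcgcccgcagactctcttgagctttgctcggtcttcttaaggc
Slc26a3: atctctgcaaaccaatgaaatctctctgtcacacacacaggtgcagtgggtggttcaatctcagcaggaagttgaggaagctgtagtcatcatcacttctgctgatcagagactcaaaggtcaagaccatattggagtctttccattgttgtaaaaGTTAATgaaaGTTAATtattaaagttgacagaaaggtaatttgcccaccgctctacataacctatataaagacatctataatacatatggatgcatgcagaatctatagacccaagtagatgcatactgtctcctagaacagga
Slc45a3: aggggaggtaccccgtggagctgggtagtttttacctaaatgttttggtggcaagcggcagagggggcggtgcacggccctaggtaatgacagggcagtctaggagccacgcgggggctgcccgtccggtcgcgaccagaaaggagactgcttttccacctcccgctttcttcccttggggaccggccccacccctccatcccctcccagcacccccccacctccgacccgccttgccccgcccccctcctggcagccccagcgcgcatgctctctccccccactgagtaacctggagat
The Slc26a3 window holds GTTAAT at -94 and at -84 from the start site, and the other windows hold none. Other motifs were searched on both strands. The CDX motif TTTATNG, the HNF4 core CAAAGT and the AP-1 motif TGANTCA were not found in these 3 windows. Neither was AGATAA, the motif of GATA factors. The TEAD motif GGAATG was not found in them either. The GENCODE gene of Slc26a3, at chr12:31390871-31473917, begins upstream of this RefSeq start, and RefSeq lists 2 promoters for Slc45a3. The libraries read 3' ends and do not show which start is used. These matches are letters only, and the motifs were chosen after the levels were known.

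**Figure D2:**
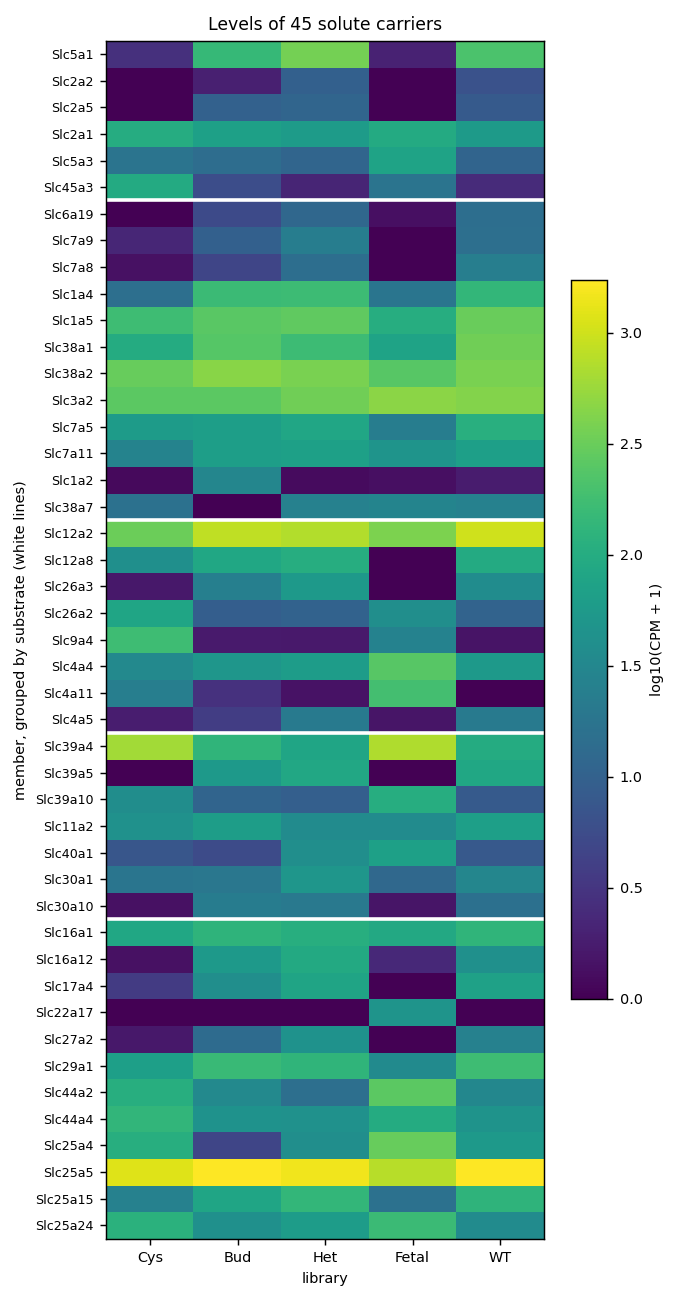
Levels of 45 solute carriers in the 5 libraries as log10(CPM + 1), grouped by substrate. Slc5a1, Slc39a5 and Slc26a3 were near 0 in Cys and Fetal, while Slc39a4 was highest in that pair.

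For amino acids, the brush-border carriers, like Slc5a1, were lowest in Cys and Fetal. Slc6a19 (B0AT1), which takes up neutral amino acids from the lumen, stood at 0 CPM in Cys, 4.29 in Bud, 10.9 in Het, 0.341 in Fetal and 13.6 in WT. Slc7a9, the cystine carrier that pairs with Slc3a1, stood at 1.20 CPM in Cys, 8.81 in Bud, 22.3 in Het, 0 in Fetal and 14.1 in WT. The basolateral partner Slc7a8 (LAT2) stood at 0.402 CPM in Cys, 3.81 in Bud, 13.9 in Het, 0 in Fetal and 23.5 in WT, and was 6.18-fold lower (3.62 to 11.2) in Bud than in WT. Some carriers found in most cells differed less. The heavy chain Slc3a2, which brings LAT1 and other light chains to the membrane, stood at 263 CPM in Cys, 262 in Bud, 344 in Het, 471 in Fetal and 433 in WT. Its partner Slc7a5 (LAT1) stood at 59.6 CPM in Cys, 64.8 in Bud, 81.4 in Het, 22.7 in Fetal and 111 in WT, and was 4.87-fold lower (4.01 to 5.96) in Fetal than in WT. The glutamine transporter Slc1a5 (ASCT2) stood at 171 CPM in Cys, 252 in Bud, 281 in Het, 102 in Fetal and 315 in WT. Slc1a4 (ASCT1), which carries alanine and serine, ranged more widely, with 14.1 CPM in Cys, 158 in Bud, 164 in Het, 17.0 in Fetal and 138 in WT. It was 9.79-fold lower (7.62 to 12.7) in Cys and 8.07-fold lower (6.51 to 10.1) in Fetal than in WT. The sum of the stem cell markers, lower in the same pair, moved with it, a part that was not tested. In Fetal 2 genes of that list stood above WT and the others below. Tnfrsf19 stood at 59.8 CPM in Fetal and 25.8 in WT, and Znrf3 at 59.3 and 50.1. The glutamine importer Slc38a1 stood at 98.4 CPM in Cys, 244 in Bud, 163 in Het, 73.5 in Fetal and 337 in WT. The related Slc38a2 spread less, with 301 CPM in Cys, 453 in Bud, 387 in Het, 245 in Fetal and 389 in WT. The cystine-glutamate exchanger Slc7a11 (xCT) was 2.40-fold lower (1.94 to 2.97) in Cys than in WT, at 27.3 CPM in Cys and 65.4 CPM in WT.

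Bud stood apart from every other library in 3 amino acid and peptide carriers. Slc1a2 (GLT-1), the glutamate importer best known from astrocytes, stood at 0.201 CPM in Cys, 29.5 in Bud, 0.228 in Het, 0.341 in Fetal and 0.743 in WT. Slc15a2 (PEPT2), a peptide importer known from kidney and brain stood at 0 CPM in Cys, 17.4 in Bud, 0.910 in Het, 0 in Fetal and 0 in WT. Slc38a7, a lysosomal glutamine exporter, had no UMI in Bud, with 15.1 CPM in Cys, 0 in Bud, 25.7 in Het, 27.4 in Fetal and 25.3 in WT. In Bud the level of Slc1a2 was 39.7-fold higher (13.3 to 195), and that of Slc15a2 at least 23.4-fold higher, than in WT. Slc38a7 was at least 35.4-fold lower than in WT, the bound coming from a floor of 3 UMIs in Bud.

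Among ion carriers, Slc12a2 (NKCC1), the basolateral cotransporter that loads crypt cells with chloride for secretion, stood at 325 CPM in Cys, 851 in Bud, 725 in Het, 393 in Fetal and 1012 in WT. It was 3.11-fold lower (2.94 to 3.30) in Cys and 2.57-fold lower (2.44 to 2.71) in Fetal than in WT. Slc26a3 (DRA), which exchanges chloride for bicarbonate on the brush border, stood at 0.602 CPM in Cys, 24.1 in Bud, 53.0 in Het, 0 in Fetal and 36.4 in WT. Slc4a5, a sodium-bicarbonate cotransporter, stood at 0.803 CPM in Cys, 2.86 in Bud, 20.7 in Het, 0.511 in Fetal and 20.3 in WT, so that Cys, Bud and Fetal all lay below Het and WT. Other members stood higher in Cys. Slc9a4 (NHE4), a sodium-proton exchanger known from acid-secreting cells of the stomach, at chr1:40580081-40630725, stood at 168 CPM in Cys, 0.714 in Bud, 0.683 in Het, 26.6 in Fetal and 0.496 in WT, which put Cys 338-fold higher (93.3 to 2797) than WT. The sulfate carrier Slc26a2 stood at 78.3 CPM in Cys, 8.33 in Bud, 9.56 in Het, 38.2 in Fetal and 9.66 in WT, and was 9.39-fold higher (6.64 to 13.7) in Cys than in Bud. The gastric marker list, at 5461 CPM in Cys and 45.4 CPM in WT, moved with Slc9a4 there, and its part in that level was not tested. In Fetal the list summed to 56.8 CPM, mostly from Vsig1 at 45.7 CPM, which stood at 0 in WT, where Gkn3 gave 41.4 CPM. Slc9a4 was 53.7-fold higher (14.6 to 447) in Fetal than in WT. Others were highest in Fetal. The bicarbonate cotransporter Slc4a4 (NBCe1) stood at 32.5 CPM in Cys, 48.8 in Bud, 60.3 in Het, 247 in Fetal and 53.0 in WT. Slc4a11, known from the endothelium of the cornea, stood at 23.5 CPM in Cys, 1.91 in Bud, 0.455 in Het, 185 in Fetal and 0 in WT. Slc12a8, of the cation-chloride cotransporter family, had no UMI in Fetal, with 39.3 CPM in Cys, 82.6 in Bud, 102 in Het, 0 in Fetal and 93.2 in WT.

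Among metal carriers, Slc39a4 (ZIP4), the zinc importer of the gut lumen that is mutated in the human zinc deficiency acrodermatitis enteropathica, at chr15:76612383-76617384 on the minus strand, stood at 604 CPM in Cys, 131 in Bud, 78.0 in Het, 705 in Fetal and 97.9 in WT. Cys and Fetal were far above the others, 6.17-fold higher (5.56 to 6.87) and 7.21-fold higher (6.50 to 8.01) than WT. Slc39a5 (ZIP5), the zinc importer of the basolateral side, stood at 0 CPM in Cys, 55.7 in Bud, 85.3 in Het, 0 in Fetal and 83.3 in WT. It ran opposite to Slc39a4, with no UMI in Cys or Fetal, and was at least 138-fold lower in Cys than in WT. The zinc importer Slc39a10 stood at 37.9 CPM in Cys, 10.0 in Bud, 8.65 in Het, 104 in Fetal and 7.19 in WT. The sum of the markers of fetal and regenerating epithelium, high in the same pair of libraries, moved with Slc39a4 and Slc39a10, and their part was not tested. Not every listed gene did so in Cys. Spp1 stood at 2.21 CPM in Cys and 1375 in Fetal, and Ly6c1 at 0.201 and 10.6. Cldn4 stood at 61.8 CPM in Cys and 57.6 in Bud, and Emp1 at 63.2 in Cys and 63.9 in Het. The other listed genes were higher in Cys and Fetal than in Bud, Het and WT. The zinc exporter Slc30a1 (ZnT1) stood at 16.9 CPM in Cys, 18.1 in Bud, 49.6 in Het, 11.3 in Fetal and 29.5 in WT. For iron, the lumenal importer Slc11a2 (DMT1) stood at 41.8 CPM in Cys, 61.4 in Bud, 35.5 in Het, 35.1 in Fetal and 65.2 in WT, and the basolateral exporter Slc40a1 (ferroportin) at 6.42 CPM in Cys, 4.52 in Bud, 38.2 in Het, 67.5 in Fetal and 6.94 in WT. Ferroportin was 5.51-fold higher (3.68 to 8.54) in Het and 9.73-fold higher (6.63 to 14.8) in Fetal than in WT. The copper importer Slc31a1 stood at 112 CPM in Cys, 87.6 in Bud, 117 in Het, 59.2 in Fetal and 128 in WT, and the manganese exporter Slc30a10 at 0.402 CPM in Cys, 21.7 in Bud, 19.3 in Het, 0.511 in Fetal and 14.9 in WT.

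Carriers of phosphate, organic ions, carboxylates and lipids held further members near 0 in Cys and Fetal. Slc17a4, an organic anion carrier of the intestinal brush border, stood at 2.61 CPM in Cys, 39.3 in Bud, 77.1 in Het, 0 in Fetal and 70.1 in WT. Slc16a12, which transports creatine, stood at 0.402 CPM in Cys, 54.3 in Bud, 91.7 in Het, 1.36 in Fetal and 41.4 in WT. The fatty acid transport protein Slc27a2 stood at 0.602 CPM in Cys, 12.6 in Bud, 43.7 in Het, 0 in Fetal and 25.5 in WT. The related Slc27a4 of enterocytes did not share that order, with 26.5 CPM in Cys, 20.004 in Bud, 45.5 in Het, 25.7 in Fetal and 33.2 in WT. The lactate transporter Slc16a1 (MCT1) stood at 83.1 CPM in Cys, 126 in Bud, 105 in Het, 88.5 in Fetal and 129.6 in WT, and Slc16a3 (MCT4), of glycolytic cells, at 85.5 CPM in Cys, 125 in Bud, 70.5 in Het, 82.0 in Fetal and 84.8 in WT. The phosphate importer Slc20a1 stood at 40.8 CPM in Cys, 25.5 in Bud, 30.03 in Het, 64.6 in Fetal and 31.5 in WT. Slc22a17, the receptor for lipocalin-2, had UMIs in Fetal alone, at 46.4 CPM. The choline transporter-like gene Slc44a2 stood at 107 CPM in Cys, 31.9 in Bud, 14.1 in Het, 266 in Fetal and 30.5 in WT, and the thiamine pyrophosphate carrier Slc44a4 at 135 CPM in Cys, 43.6 in Bud, 43.0 in Het, 98.0 in Fetal and 45.4 in WT. Both were higher in Cys and Fetal than in WT. The nucleoside transporter Slc29a1 (ENT1) stood at 66.2 CPM in Cys, 155 in Bud, 129 in Het, 34.3 in Fetal and 168 in WT, with Cys and Fetal lowest.

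Of the mitochondrial carriers, the adenine nucleotide exchanger Slc25a5 (ANT2) stood at 1205 CPM in Cys, 1723 in Bud, 1481 in Het, 771 in Fetal and 1688 in WT. Its counterpart of muscle and heart, Slc25a4 (ANT1), at chr8:46206797-46211284 on the minus strand, stood at 107 CPM in Cys, 3.81 in Bud, 38.4 in Het, 305 in Fetal and 54.5 in WT. Bud was lowest, 14.3-fold lower (8.62 to 25.5) than WT, and Fetal highest, 5.60-fold higher (4.87 to 6.47) than WT. The phosphate carrier Slc25a3 stood at 644 CPM in Cys, 709.7 in Bud, 854 in Het, 594 in Fetal and 695 in WT and the citrate carrier Slc25a1 at 292 CPM in Cys, 244 in Bud, 279.6 in Het, 264 in Fetal and 406 in WT. The ornithine carrier Slc25a15, of the urea cycle, stood at 25.5 CPM in Cys, 78.1 in Bud, 137 in Het, 15.0 in Fetal and 125 in WT, and was 4.91-fold lower (4.03 to 6.01) in Cys than in WT. The calcium-regulated ATP-Mg carriers Slc25a23 and Slc25a24 parted in Cys: Slc25a23 stood at 3.21 CPM in Cys, 19.5 in Bud, 37.8 in Het, 101 in Fetal and 39.9 in WT, and Slc25a24 at 117 CPM in Cys, 41.7 in Bud, 61.0 in Het, 160.1 in Fetal and 35.4 in WT. The aspartate-glutamate carrier Slc25a13 (citrin) was lower in Bud and Het than in WT, with 53.6 CPM in Cys, 17.1 in Bud, 11.4 in Het, 106 in Fetal and 37.9 in WT. The folate carrier Slc25a32 stood at 16.5 CPM in Cys, 31.4 in Bud, 15.7 in Het, 8.18 in Fetal and 20.6 in WT, and the peroxisomal carrier Slc25a17 at 107 CPM in Cys, 101 in Bud, 53.9 in Het, 152 in Fetal and 84.5 in WT. Slc25a35, whose solute is not established, stood at 25.1 CPM in Cys, 16.2 in Bud, 9.33 in Het, 5.97 in Fetal and 26.3 in WT, lowest in Het and Fetal.

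In the Golgi, the GDP-fucose carrier Slc35c1 stood at 352 CPM in Cys, 176 in Bud, 182 in Het, 127 in Fetal and 211 in WT, highest in Cys, and the UDP-N-acetylglucosamine carrier Slc35a3 at 65.4 CPM in Cys, 66.9 in Bud, 52.6 in Het, 14.8 in Fetal and 48.6 in WT, lowest in Fetal. The UDP-galactose carrier Slc35a2 stood at 54.2 CPM in Cys, 43.3 in Bud, 31.6 in Het, 35.5 in Fetal and 31.5 in WT, and Slc35b1, which exchanges ATP for ADP across the ER membrane, at 80.5 CPM in Cys, 74.8 in Bud, 73.9 in Het, 53.4 in Fetal and 70.4 in WT. Slc35f5 stood at 84.9 CPM in Cys, 28.6 in Bud, 73.9 in Het, 146 in Fetal and 37.4 in WT. Slc35g1 stood at 195 CPM in Cys, 169.8 in Bud, 185 in Het, 66.1 in Fetal and 169.5 in WT, and Slc35e2 at 22.1 CPM in Cys, 22.4 in Bud, 15.2 in Het, 11.1 in Fetal and 30.5 in WT. The riboflavin transporter Slc52a2 stood at 11.4 CPM in Cys, 20.96 in Bud, 15.2 in Het, 11.3 in Fetal and 29.2 in WT. The vesicular amine transporter Slc18a1 (VMAT1) stood at 7.23 CPM in Cys, 6.67 in Bud, 17.1 in Het, 1.88 in Fetal and 11.2 in WT, and the vesicular polyamine transporter Slc18b1 at 16.3 CPM in Cys, 36.7 in Bud, 39.4 in Het, 10.1 in Fetal and 39.9 in WT. Of the rows that are not transporters, the scaffold Slc9a3r1 (NHERF1), which anchors membrane proteins to the brush border, stood at 106 CPM in Cys, 61.0 in Bud, 81.2 in Het, 127 in Fetal and 74.3 in WT, and Slc7a6os at 33.1 CPM in Cys, 47.4 in Bud, 38.2 in Het, 35.3 in Fetal and 42.4 in WT.

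Some members had nearly all their UMIs in Fetal. The potassium-chloride cotransporter Slc12a4 stood at 0.402 CPM in Cys, 0 in Bud, 0.455 in Het, 18.8 in Fetal and 0 in WT, with 95.6% of its summed CPM in Fetal. The anion exchanger Slc4a3 stood at 1.00 CPM in Cys, 0 in Bud, 0 in Het, 11.6 in Fetal and 0 in WT. Slc26a9, a chloride carrier known from stomach and airway, stood at 3.61 CPM in Cys, 0 in Bud, 0 in Het, 28.0 in Fetal and 0 in WT. The gastric markers summed to 56.8 CPM in Fetal and 45.4 CPM in WT, but from different genes. Vsig1 stood at 45.7 CPM in Fetal and 0 in WT, and Gkn3 at 3.07 CPM in Fetal and 41.4 in WT. The serotonin transporter Slc6a4 had another order, with 0.201 CPM in Cys, 3.57 in Bud, 32.8 in Het, 0 in Fetal and 18.8 in WT.

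In Cys against WT the carriers Slc5a1, Slc39a5, Slc17a4, Slc16a12, Slc26a3 and Slc27a2 were lower, as was Slc1a4, while Slc9a4, Slc45a3, Slc39a4 and Slc26a2 were higher. A member was counted as measured with at least 20 UMIs over both libraries, and as higher or lower at a CPM ratio of at least 2. Of 197 measured members, 45 were lower, where 12.8% of all 10917 measured genes were, and 28 were higher, where 11.6% of all genes were. Those counts are 22.8% and 14.2% of the measured members. The median log2 ratio, taken after adding 10 CPM to both levels, was -0.04 over the members and -0.07 over all genes. Of 30 measured amino acid and peptide carriers 2 were higher and 10 lower, and of 7 carboxylate carriers 0 were higher and 4 lower. Of 36 mitochondrial carriers 3 were higher and 6 lower, and of 17 carriers of the ER and Golgi 2 were higher and 1 lower. Of 25 metal carriers 5 were higher and 4 lower, and of 21 ion carriers 5 were higher and 6 lower. The summed level of the ion carriers in Cys was 0.662 (0.638 to 0.687) times that of WT. That ratio rests largely on Slc12a2, which made up 64.0% of the sum in WT and 31.1% in Cys. Of the members higher in Cys, Slc9a3r2, a scaffold protein with 15.7 CPM in Cys and 1.24 in WT, is not a transporter.

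Of the members, 153 have a promoter in the RefSeq table. GTTAAT is found in 4 of 35 members at least 2-fold lower in Cys than in WT, in 1 of 19 at least 2-fold higher, in 3 of 91 that were neither, and in 8.24% of all 27025 genes. GGAATG is found in 10 of the 35, 1 of the 19 and 15 of the 91, and in 16.6% of all genes. The CDX motif is found in 2, 1 and 5 of the same groups and in 12.53% of all genes, and the HNF4 core in 6, 3 and 14, and in 16.1%. The GATA motif is found in 4, 2 and 5, and in 12.7%, and the AP-1 motif in 0, 1 and 6, and in 8.97%. None of these counts was tested.

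**Figure D3:**
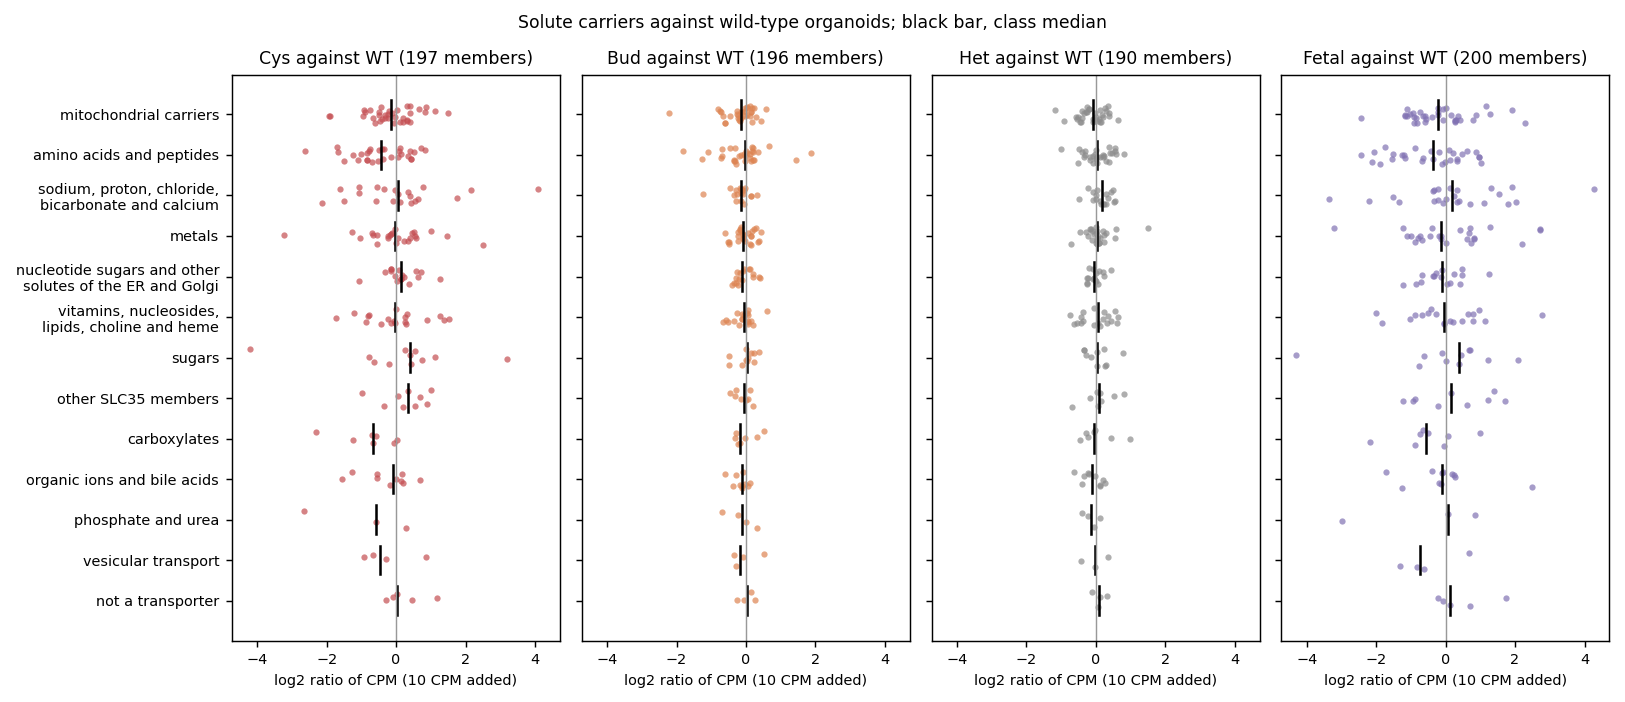
Log2 ratio of CPM (10 CPM added) of each measured member against WT, by class, with 1 panel for each of Cys, Bud, Het and Fetal. Points are members and black bars class medians. In Cys and Fetal single members reach beyond 4 in either direction, while in Bud and Het nearly all lie close to 0.

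In Bud against WT the carriers kept nearer to WT. Slc1a2, Slc15a2 and Slc7a6 were higher, and Slc25a4, Slc38a7, Slc7a8, Slc4a5, Slc6a19 and Slc27a2 were lower. Of 196 measured members, 8 were higher, where 3.06% of all genes were, and 12 were lower, where 4.05% of all genes were. The members' shares were 4.08% and 6.12%, near those of all genes, and the median log2 ratio was -0.10 over the members and -0.04 over all genes. With Het in place of WT, 22 of 196 measured members were lower in Bud, where 5.86% of all genes were. Of the named members higher or lower against WT, Slc25a13 turned in that comparison, with a log2 ratio of 0.34 against -0.82 with WT. So did Slc7a6, with -0.14 against 0.66. The enterocyte markers, at 1351 CPM in Bud and 3888 CPM in WT, moved with the lower absorptive members, and their part was not tested.

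In Het against WT ferroportin, Slc16a12 and Slc7a6, an exchanger of basic and neutral amino acids, were higher, and Slc25a13, Slc38a1, Slc25a35 and Slc44a2 were lower. Of 190 measured members, 7 were higher, where 3.94% of all genes were, and 10 were lower, where 3.78% of all genes were. The median log2 ratio was 0.02 over the members and -0.03 over all genes. Slc5a1, at 362 CPM in Het and 208 CPM in WT, was 1.74-fold higher and did not reach the ratio of 2. The enterocyte markers were also higher in Het, at 7102 CPM against 3888 CPM in WT, and their part was not tested. Each single count rests on 1 library against 1, and no spread between cultures of 1 genotype can be had from these data.

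In Fetal against WT the carriers Slc5a1, Slc39a5, Slc17a4 and Slc26a3 were lower, at or near 0, and Slc12a8 and Slc1a4 were lower too. Higher were Slc4a11, Slc44a2, Slc39a4, Slc39a10, Slc22a17, Slc25a4, ferroportin and Slc5a3. Of 200 measured members, 57 were lower, where 15.6% of all genes were, and 40 were higher, where 19.6% of all genes were. The members' shares were 28.5% lower and 20% higher, and the median log2 ratio was -0.09 over the members and 0.05 over all genes. Of 36 mitochondrial carriers 6 were higher and 12 lower, and of 29 amino acid and peptide carriers 4 were higher and 11 lower. Of 24 ion carriers 9 were higher and 4 lower, while their summed level in Fetal was 0.816 (0.789 to 0.843) times that of WT. That ratio too rests largely on Slc12a2, which made up 64.0% of the sum in WT and 30.5% in Fetal. The comparisons of Cys, Bud, Het and Fetal share the WT library, so their values are given side by side and their overlap is not a result.

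Cys and Bud, both of genotype Lkb1 -/-, were compared directly, which leaves WT out. In Cys against Bud, Slc9a4, Slc25a4, Slc45a3, Slc26a2 and Slc39a4 were higher, and Slc5a1, Slc1a4, Slc39a5, Slc16a12, Slc17a4 and Slc1a2 were lower. Of 194 measured members, 33 were higher, where 12.3% of all genes were, and 41 were lower, where 11.4% of all genes were. Slc39a4, at 604 CPM in Cys and 131 CPM in Bud, was 4.61-fold higher (4.21 to 5.06). Slc12a2, at 325 CPM in Cys and 851 CPM in Bud, was 2.62-fold lower (2.47 to 2.78). The median log2 ratio was 0.03 over the members and -0.03 over all genes. Lower members made up 10 of 29 amino acid and peptide carriers and 4 of 7 carboxylate carriers, against 2 and 0 higher. Of 36 mitochondrial carriers 7 were higher and 5 lower, and their summed level in Cys was 0.884 (0.866 to 0.902) times that of Bud. That ratio rests on Slc25a5, at 1205 CPM in Cys and 1723 CPM in Bud, which made up 32.9% of the sum in Cys and 41.6% in Bud.

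**Figure D4:**
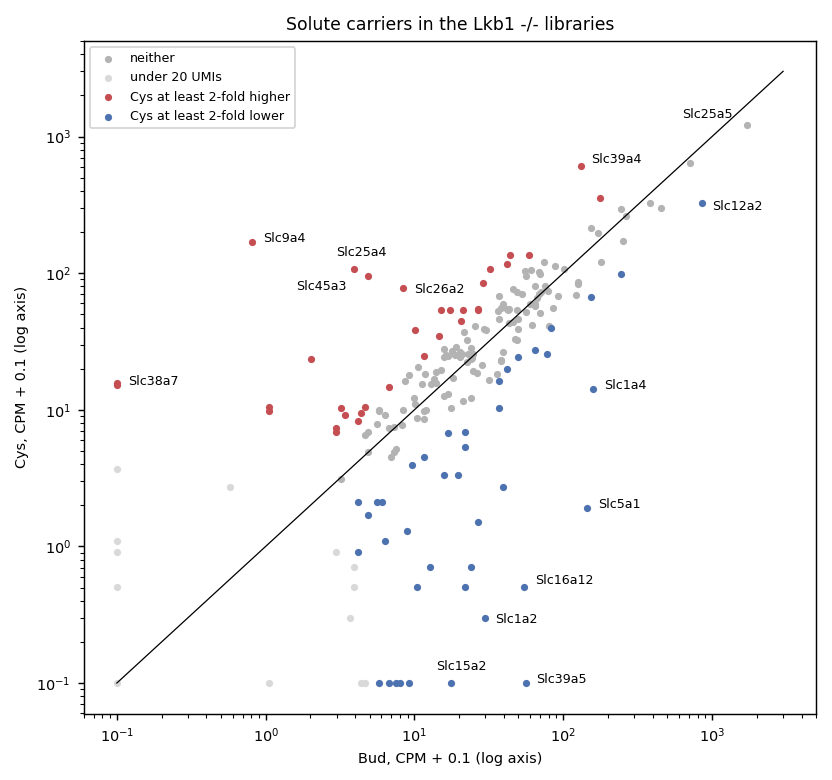
Level of each member in Cys (vertical axis) against Bud (horizontal axis), both as CPM + 0.1 on log axes, with the line of equal levels. Red points were at least 2-fold higher in Cys, such as Slc9a4, and blue points at least 2-fold lower, such as Slc5a1, and pale grey points had under 20 UMIs over both libraries.

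Which wells held the transcripts was asked within each library. The tenth of kept wells with the largest share of UMIs from enterocyte markers was taken, which is a range of wells and not a cell type, and no marker is a solute carrier. In WT, where these 30 wells held 9.31% of all UMIs, they held 65.5% (51.4 to 77.8) of Slc6a19, 45.6% (37.4 to 54.0) of Slc26a3, 40.3% (31.9 to 49.1) of Slc27a4 and 36.2% (32.9 to 39.5) of Slc5a1. They held 1.30% (0.974 to 1.69) of Slc12a2 and 0.541% (0.112 to 1.57) of Slc1a4. In Het, where 35 wells held 14.2% of all UMIs, they held 94.9% (82.7 to 99.4) of Slc2a2, 87.5% (74.8 to 95.3) of Slc6a19 and 55.3% (52.8 to 57.8) of Slc5a1. In Bud, where 32 wells held 9.97%, they held all 18 UMIs of Slc6a19, which came from 8 wells, 51.4% (34.4 to 68.1) of Slc7a9 and 26.0% (22.5 to 29.7) of Slc5a1. These absorptive carriers lay in the marker-high wells more than UMIs in general did, and Slc12a2 and Slc1a4 less. Slc17a4 in Bud, at 12.7% (8.05 to 18.8), did not differ from the share of all UMIs beyond its interval. Within 10% of the lowest marker share taken lay 4 wells in Het and 2 in WT, but 10 in Bud, where 32 wells were taken, so the limit was less sharp in Bud.

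**Figure D5:**
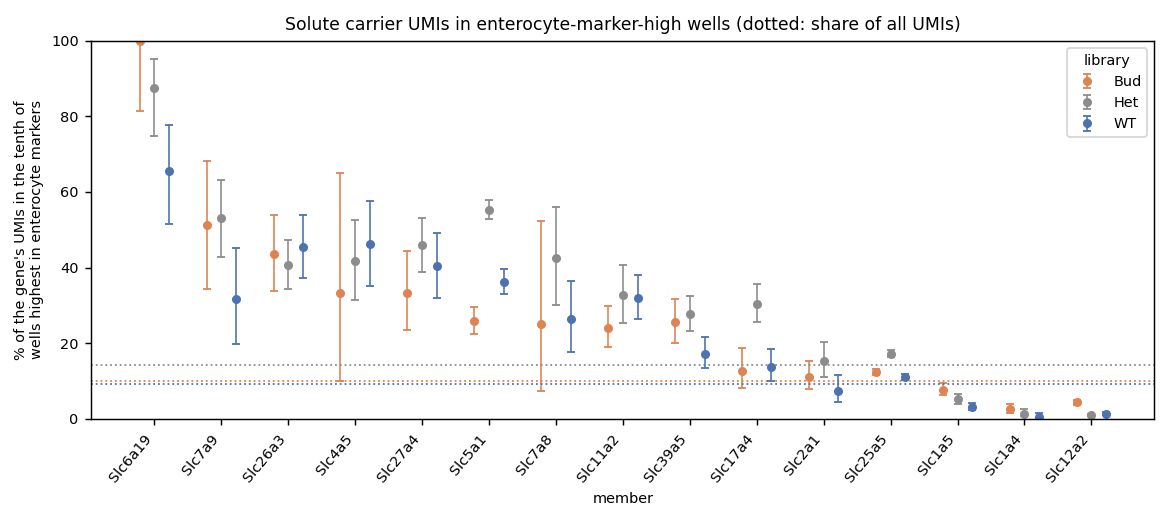
Percent of each gene's UMIs in the tenth of wells highest in enterocyte markers, for Bud, Het and WT, with exact binomial counting intervals; dotted lines give the share of all UMIs in those wells. Slc6a19 and Slc7a9 lie well above the lines and Slc1a4 and Slc12a2 below.

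The marker-high wells did not hold all of the enterocyte signal: they had 50.6% of the marker UMIs in Bud, 74.3% in Het and 66.4% in WT, and the other wells had the rest. Outside the marker-high wells the level of Slc5a1 was 119 CPM in Bud, 188 CPM in Het and 146 CPM in WT. All kept wells of Cys gave 1.81 CPM and those of Fetal 1.02 CPM. Slc39a5 stood at 46.0 CPM in the other wells of Bud and 76.0 CPM in those of WT, and had no UMI in Cys or Fetal. The split was not informative in Cys and Fetal, where the enterocyte list had 358 and 320 UMIs in all. Whether fewer mature cells or a lower level in each cell set the library sums was not tested beyond these values.

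Other marker lists placed other members. Slc18a1, which packs amines into secretory vesicles, had 44.0% (32.5 to 55.9) of its UMIs in the enteroendocrine-high wells of Het, which held 4.88% of all UMIs, and 53.3% (37.9 to 68.3) in those of WT, which held 6.31%. The enteroendocrine-high wells had medians of 5430 UMIs in Het and 6500.5 in WT, against 12116 and 12898.5 in the others. The lowest marker share taken was only 0.0143% in Het and 0.0051% in WT. Ghrl gave 346 of the 516 CPM of that list in Het and stood at 0 in WT. Slc12a8 had 26.0% (20.03 to 32.8) of its UMIs in the goblet-high wells of Cys, 28.3% (24.2 to 32.7) in those of Het and 27.9% (23.4 to 32.8) in those of WT, which held 7.38%, 6.31% and 4.81% of all UMIs. These wells were shallower, with a median of 8808 UMIs in Cys, 6199 in Het and 3475 in WT. The other wells had medians of 10643, 11885.5 and 13790.5 UMIs. For Bud the share of Slc12a8 is not given here. Its goblet-high wells held 2.67% of all UMIs, with a median of 2451.5 UMIs against 13111.5 in the others. There 11 wells lay within 10% of the lowest marker share taken. The goblet list summed to 1247 CPM in Cys, 2107 in Bud, 2385 in Het, 43.6 in Fetal and 1432 in WT, and Fetal is the library with no UMI of Slc12a8. The goblet genes did not move together in Cys: Agr2, Spdef and Ccl6 were higher than in WT and the other listed genes lower. Agr2 stood at 681 CPM in Cys and 101 in WT, Fcgbp at 18.1 and 436, Muc2 at 6.22 and 70.1, and Clca1 at 0 and 24.5. In Cys the stem-marker-high wells, with 6.93% of all UMIs, held 18.3% (16.4 to 20.2) of Slc12a2, and in Het, with 10.2%, they held 19.1% (17.8 to 20.5). Slc1a2 in Bud had 23.4% (16.3 to 31.8) of its UMIs in the stem-marker-high wells, which held 9.24%. The stem split separated wells poorly: 25 wells in Cys, 31 in Bud and 15 in Het lay within 10% of the lowest marker share taken, and the high wells had 20% of the stem marker UMIs in Cys, 19.6% in Bud and 29.8% in Het. The G2-marker-high wells of WT, with 15.4% of all UMIs, held 26.5% (22.4 to 30.8) of Slc7a5, and those of Fetal, with 12.3%, held 24.1% (20.2 to 28.4) of Slc5a3. In WT the G2-marker-high wells were deeper, with a median of 22074 UMIs against 11571 in the others. In Bud the wells highest in fetal and regenerative markers, with 6.53% of all UMIs, held 20.4% (15.7 to 25.7) of Slc7a11. Those wells had a median of 5411 UMIs, against 12188 in the others. Within 10% of the lowest share taken lay 15 wells in the G2 split of Fetal and 15 in this split of Bud, whose high wells had 23.04% of the marker UMIs.

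Transport genes of other families, from a list of 32 of which 29 are in the tables, were set beside the carriers. In Cys against WT, 5 of 20 measured genes were higher, where 11.6% of all genes were, and 11 were lower, where 12.8% of all genes were. In Fetal against WT 5 of 21 were higher, near the 19.6% of all genes, and 14 were lower, where 15.6% of all genes were. In Cys against Bud 5 of 19 were higher, where 12.3% of all genes were, and 9 were lower, where 11.4% of all genes were. In Bud against WT 1 of 19 was higher and 2 lower, and in Het against WT 2 of 20 were higher and 0 lower. These counts are too small to set against the shares of all genes, 3.06% higher and 4.05% lower in Bud and 3.94% and 3.78% in Het. The drug exporter Abcb1a stood at 0.803 CPM in Cys, 159 in Bud, 273 in Het, 6.82 in Fetal and 151 in WT. The sterol exporter Abcg5 stood at 0 CPM in Cys, 12.1 in Bud, 36.4 in Het, 0 in Fetal and 24.0 in WT. Both were at or near 0 in Cys and Fetal, as Slc5a1 was. The chloride channel Cftr, which secretes the chloride that Slc12a2 loads, stood at 296 CPM in Cys, 147 in Bud, 86.9 in Het, 6.31 in Fetal and 79.8 in WT, and was 3.71-fold higher (3.29 to 4.20) in Cys than in WT. The water channel Aqp5 stood at 65.2 CPM in Cys, 0 in Bud, 0 in Het, 17.7 in Fetal and 0 in WT, and the exporter Abcc3 at 117 CPM in Cys, 22.9 in Bud, 32.8 in Het, 62.2 in Fetal and 25.5 in WT.

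Several well-known intestinal carriers fell below the minimum of 50 UMIs. The peptide importer Slc15a1 had 7 UMIs in all, the sodium-proton exchanger Slc9a3 had 3, Slc26a6 had 13, the phosphate importer Slc34a2 had 16 and Slc3a1, the partner of Slc7a9, had 33. The ileal bile acid importer Slc10a2 had 48, with 3.41 CPM in Cys, 0.714 in Bud, 0.228 in Het, 4.60 in Fetal and 0 in WT. All 13 UMIs of Slc26a6, which exchanges chloride, were in Het, at 2.96 CPM (1.57 to 5.06), and came from 12 wells. For Slc3a1, the level was 0 CPM in Fetal, with an upper limit of 0.629 CPM, and 3.22 CPM (1.72 to 5.51) in WT. The counts of Slc15a1, Slc9a3 and Slc34a2 were too low at this depth to order the libraries.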

How the data were processed

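Single cells were sorted into 384-well plates and their RNA 3' ends read with an adapted SORT-seq protocol, per the labels' protocols. The authors deposited raw UMI counts and read counts per gene and well. A further table of the authors holds estimated counts, corrected for identifier collisions: its values followed the formula for 4096 codes. STAR 2.6.1, featureCounts 1.5.2, Seurat 4.1.0 and GRCm38 are named in the submitters' processing notes, with no role given.

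UMI counts were summed over wells with at least 1000 UMIs (ERCC spike-ins left out) and divided by the library total to give CPM. Read counts were not used. Doublets were not called, and no cell was typed. Levels carry exact Poisson intervals, ratios exact conditional binomial intervals and shares exact binomial intervals, all at 95% and covering counting error only. A gene with no UMI in a library was given a floor of 3 UMIs there for a bound on its fold. Members were matched to GENCODE M21 by symbol, 206 of 207, and promoter sequences come from RefSeq, GRCm38.p6. The calculation of ratios and calls was tested on simulated data. Python 3.11.15 with numpy 2.4.6, pandas 2.3.3, scipy 1.17.1 and matplotlib 3.10.9 was used.

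The members, classes, marker lists and tests were chosen with earlier results of these data known. Named members are, per comparison, the 8 highest and the 8 lowest log2 ratios among members with at least 20 CPM in the higher library, the 2 most abundant of each class, and a fixed list of 31 genes. Slc35b2, Slc25a11, Slc12a9, Slc15a2, Slc9a3r2, Slc12a4, Slc4a3, Slc26a9 and Slc6a4, the class of Slc35e3, Slc4a1ap and Slc7a6os, and the motifs were chosen after values were seen. Some listed genes are not reported here.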

Additional observations from a re-analysis of the deposited data

How the results depend on the processing

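Of the recomputed counts of members, 117 stayed within 1.5 times the reported count, as did all 43 medians within their limits. Of the log2 ratios of named members, 2914 stayed within their limits and 390 moved further. Another 2, of members counted as higher or lower, changed sign. Sign changes of members counted as neither were not counted apart. A rule of a 1.5-fold ratio whose interval excludes 1 gave 47 members higher in Cys, 61 in Fetal and 23 in Het than in WT, 28 lower in Bud and 22 lower in Het than in WT, and 52 higher in Cys than in Bud. A minimum of 50 UMIs left 4 higher in Bud than in WT, equal weight for every well gave 13 higher in Het than in WT, and Het in place of WT gave 22 lower in Bud. With Het, the log2 ratio in Bud was 0.34 for Slc25a13 and -0.14 for Slc7a6, both opposite in sign to those with WT. Of 65 class sums, 27 stayed within their counting interval with equal weight for every well and 37 with Rn45s left out of the total; all recomputed class sums lay between 0.788 and 1.24 times those reported. That summary of the class sums, and leaving out the 5 rows that are not transporters, were chosen after seeing the data. The cause of these changes was not tested. Scaling by the median ratio shifted log2 ratios by -0.06 to 0.09, and was not run for class sums. No paired analysis was possible because each group has 1 library. Counting depth limits members with few UMIs, and no spread between cultures could be measured.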
